A study of Rattus norvegicus with 9 samples.

Results

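The miRNA pool of the saline-treated rat hippocampus was described from the vehicle control group (VEH), chosen by its label. It holds 3 of the 9 small RNA libraries of the series, whose other groups received MK-801 alone or MK-801 followed by clozapine and were not used here. VEH animals were Sprague-Dawley rats injected with sterile saline over courses of 14 and 7 days. The labels give their age as postnatal day 21, while the growth protocol has rats entering treatment at 5 weeks, so the age at dissection was not settled. Each group had 10 rats, and the number of rats behind 1 library is not stated, so the spread between libraries may be technical. RNA came from the whole dissected hippocampus, a mixture of cell types. With 1 group there was no contrast to test, and values are given for VEH replicates 1, 2 and 3 and as mean ± SD (n = 3).

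A microRNA (miRNA) is a short RNA cut from a hairpin precursor, whose arms give a 5p and a 3p product. Usually an Argonaute protein keeps mainly 1 arm, the guide, and the other is degraded. The guide finds target messenger RNAs largely through its seed, bases 2 to 8 from its 5′ end, so miRNAs with the same seed can share targets. In the hippocampus, miRNAs act in neuronal differentiation and in the local control of translation at synapses.

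The sequences that carried most of the signal are shown first, from RefSeq (GRCr8 table), 5′ to 3′ with the seed in capitals. The leading miRNAs whose seed no other listed miRNA shared were these 6.
miR-127-3p: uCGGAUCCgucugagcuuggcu
miR-9a-5p: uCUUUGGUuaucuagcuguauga
miR-22-3p: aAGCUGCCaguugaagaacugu
miR-434-3p: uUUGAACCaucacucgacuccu
miR-191a-5p: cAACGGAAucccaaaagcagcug
miR-138-5p: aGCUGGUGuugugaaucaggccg

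The miR-181 seed ACAUUCA was shared by 4 miRNAs, which differed only behind it.
miR-181a-5p: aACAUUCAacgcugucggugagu
miR-181b-5p: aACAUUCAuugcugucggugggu
miR-181c-5p: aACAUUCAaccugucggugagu
miR-181d-5p: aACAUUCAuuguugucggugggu

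The let-7 seed GAGGUAG was shared by 9 miRNAs, of which the 5 most abundant are shown.
let-7f-5p: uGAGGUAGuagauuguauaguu
let-7c-5p: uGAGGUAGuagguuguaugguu
let-7a-5p: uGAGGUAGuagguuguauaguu
let-7g-5p: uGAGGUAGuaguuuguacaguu
let-7i-5p: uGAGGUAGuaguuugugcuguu

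The miR-26 and miR-27 pairs and miR-128 complete the set, because 1 member held nearly all of each pair and because miR-27 and miR-128 have seeds that are offset by 1 base and share CACAGU.
miR-26a-5p: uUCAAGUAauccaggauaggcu
miR-26b-5p: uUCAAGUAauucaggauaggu
miR-27b-3p: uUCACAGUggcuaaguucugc
miR-27a-3p: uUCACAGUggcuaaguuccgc
miR-128-3p: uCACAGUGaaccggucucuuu

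Library totals were 16690322, 11768778 and 18284905 miRNA counts, so a miRNA at 10 CPM (counts per 1000000) rested on 118 to 183 counts. Where no read was counted, the level could still reach 0.164 to 0.255 CPM (3 counts), for counting error only. Of 633 listed miRNA names, 606 had a count in at least 1 VEH library. No pair of libraries held the same counts within counting error (chi-square per degree of freedom of 295 to 332), so none was treated as a library deposited again, which at this depth does not show that they came from separate animals. Levels of different miRNAs were compared as read counts, with no length term. How evenly library construction captured different sequences was not tested.

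The hippocampal miRNA pool was led by a few molecules. MiR-127-3p, which is transcribed antisense to the imprinted gene Rtl1, stood at 121816, 155629 and 143916 CPM, a mean of 140454 ± 17170 CPM. MiR-181a-5p, known to act on glutamate receptor levels in neurons, stood at 124257, 110017 and 108361 CPM (114212 ± 8739). The ranges of these miRNAs overlapped, and miR-181a-5p was the more abundant in replicate 1. MiR-26a-5p followed at 93441, 86578 and 88175 CPM (89398 ± 3592), level with miR-9a-5p, a regulator of neural progenitors, at 88435, 87803 and 87110 CPM (87783 ± 663). Next came miR-22-3p at 66755, 64451 and 59833 CPM (63680 ± 3525), below miR-9a-5p and above every lower-ranked miRNA in each library. These 5 miRNAs took 49.6 ± 0.857% of all counts.

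The next ranks were clearly spaced. MiR-434-3p, encoded near miR-127 in the same imprinted region, stood at 38336, 41960 and 41401 CPM. MiR-191a-5p stood at 34024, 34115 and 34883 CPM, and let-7f-5p, of the family first known for developmental timing, at 32100, 27726 and 33079 CPM. MiR-27b-3p averaged 26000 ± 1085 CPM. None of these 4 ranges touched the next lower one. MiR-138-5p, which limits dendritic spine size, averaged 21944 ± 638 CPM and overlapped let-7c-5p (21596 ± 3015 CPM). Over the 30 most abundant miRNAs, 8 had a range clear of the next one down, so most of the finer order was not resolved by 3 libraries.

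**Figure D1:**
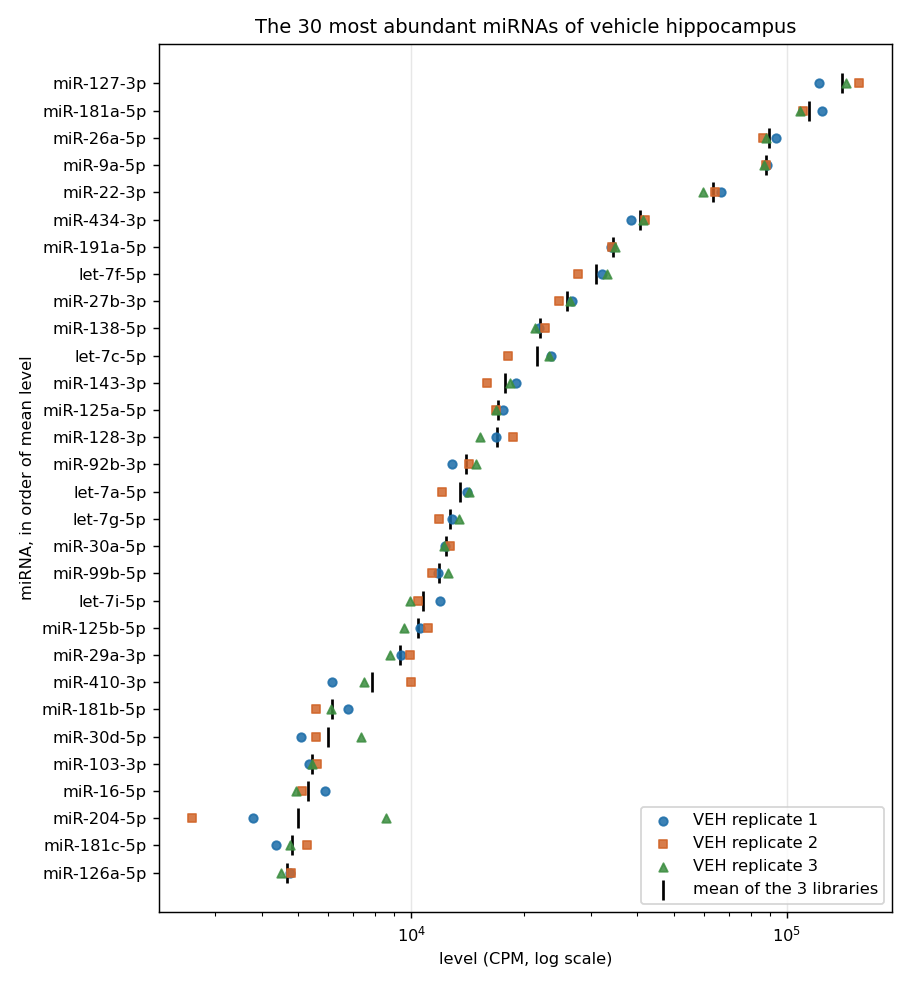
Levels (CPM, log scale) of the 30 most abundant miRNAs in each of the 3 VEH libraries, with black ticks at the means. MiR-127-3p led at a mean of 140454 CPM, and miR-204-5p was the miRNA with the widest scatter, from 2613 to 8583 CPM.

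Further down the list, miR-143-3p (17775 ± 1634 CPM), miR-125a-5p (17055 ± 429 CPM), miR-128-3p (16888 ± 1710 CPM), miR-92b-3p (13982 ± 1035 CPM), let-7a-5p (13450 ± 1208 CPM) and miR-30a-5p (12379 ± 224 CPM) were all above 10000 CPM. MiR-125a-5p was the steadiest of these beside miR-30a-5p, and both stayed within a narrow band in all libraries. MiR-124-3p, a defining miRNA of neurons, stood at 3113, 3495 and 2870 CPM (3159 ± 315), rank 39. MiR-9a-5p was therefore 27.9-fold above miR-124-3p, with a range of 25.1 to 30.4 over libraries.

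The 10 most abundant miRNAs held 64.9 ± 0.477% of counts and the 30 most abundant 86.3 ± 0.136%. Counted from the top, 6 miRNAs made up 50% of the pool, 41 made up 90% and 154 made up 99%. A mean of 1 CPM was reached by 446 miRNAs, 10 CPM by 331, 100 CPM by 184, 1000 CPM by 73 and 10000 CPM by 21. The last 21 alone held 80.8% of counts. Membership of the top was shared, with 9 miRNAs among the first 10 and 29 among the first 30 in every library. The exception among the first 30 was miR-204-5p, at ranks 34, 46 and 23, while miR-186-5p and miR-411-5p each entered the first 30 in 1 library.

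Grouped by seed, the pool was split between lone miRNAs and a few shared seeds. The 633 names had 525 different seeds, and the 456 seeds with 1 listed miRNA held 50.9% of counts. The 10 largest seed groups held 74.0 ± 0.316%, and 5 of them had a single member. MiR-127-3p alone made its seed the largest group, at 12.2, 15.6 and 14.4% (14.0 ± 1.72%). The miR-181 seed took 13.6, 12.2 and 12.0% (12.6 ± 0.888%), which overlapped the share of miR-127-3p. The let-7 and miR-98 seed took 10.8, 9.19 and 10.7% (10.2 ± 0.90%), lowest in replicate 2. The miR-26 seed took 8.99 ± 0.362% and that of miR-9a-5p 8.78 ± 0.0663%.

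**Figure D2:**
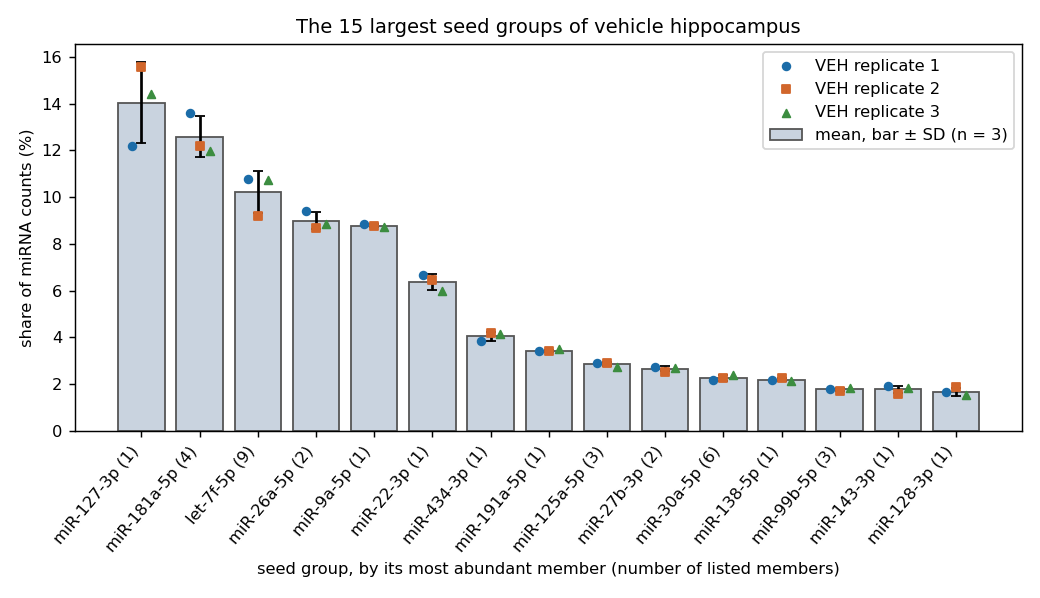
Share of all miRNA counts (%) held by each of the 15 largest seed groups, named by the most abundant member with the number of listed members in parentheses. Bars are means with SD (n = 3) and symbols are the VEH libraries. MiR-127-3p, miR-181 and let-7 lead at 14.0, 12.6 and 10.2%.

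Shared seeds differed in how evenly their members contributed. Let-7 was the most divided of the large groups: let-7f-5p gave 30.3 ± 0.484% of its counts, let-7c-5p 21.0 ± 1.16%, let-7a-5p 13.1 ± 0.0914%, let-7g-5p 12.4 ± 0.499% and let-7i-5p 10.5 ± 1.13%. The other 4 members, let-7b-5p, miR-98-5p, let-7e-5p and let-7d-5p, gave 2.58 to 3.58% each. In the miR-181 group miR-181a-5p gave 90.7 ± 0.522%, miR-181b-5p 4.88%, miR-181c-5p 3.84% and miR-181d-5p 0.588%. MiR-26a-5p gave 99.5% of its seed, leaving 465 ± 33.7 CPM for miR-26b-5p, and miR-27b-3p gave 97.8% against 2.15% for miR-27a-3p. Within the miR-125 seed CCCUGAG, miR-125a-5p gave 59.7%, miR-125b-5p 36.3% and miR-351-5p 3.98%. The miR-30 seed GUAAACA was led by miR-30a-5p at 54.6 ± 3.18% and miR-30d-5p at 26.2 ± 3.80%, and it also held miR-384-5p at 4.10%. The seed AUUGCAC of the miR-25 and miR-92 family was held at 93.8% by miR-92b-3p.

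Near-identical sequences limit these splits. Mismatches were counted base by base from the 5′ end, with no shifts or gaps. Of the 30 most abundant miRNAs, 10 had another listed miRNA within 1 mismatch and 15 within 2. These included let-7a, let-7c and let-7f, miR-27b, miR-30a and miR-30d, miR-29a, miR-103 and miR-181b. Pairs that differ by missing bases were not caught. MiR-181c-5p was scored at 9 mismatches from its nearest name, although it is miR-181a-5p with a base missing. MiR-125a-5p and miR-125b-5p were scored at 7. The rule by which the authors divided reads that match several miRNAs is not known from the labels. Values of single members in groups of similar sequence are therefore uncertain. In that count, miR-127-3p, miR-9a-5p, miR-22-3p, miR-434-3p, miR-191a-5p and miR-138-5p had no listed miRNA within 9 mismatches. Relatives that match only after a shift were missed, such as miR-9b-5p for miR-9a-5p.

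Families defined by miRNA number, with both arms, ranked much as the seeds did. Among 313 such families the 10 largest held 74.4 ± 0.334% of counts. The miR-127 family took 14.1%, miR-181 12.7% over 10 names, let-7 9.95% over 18 names, miR-26 8.99%, miR-9 8.91% and miR-22 6.38%. They were followed by miR-434 at 4.23%, miR-191 at 3.44%, miR-125 at 3.05% and miR-27 at 2.66%. The let-7 family was smaller than the let-7 seed group because miR-98-5p, at 3518 ± 255 CPM, carries the let-7 seed under another number.

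MiRNAs from 1 genomic cluster were present at very different levels. In the miR-23b/27b/24 cluster, miR-27b-3p exceeded miR-24-3p 31.6-fold and miR-23b-3p 55.3-fold, with a range of 52.7 to 58.0 over libraries. MiR-16-5p exceeded its neighbour miR-15b-5p 97.3-fold, and miR-221-3p exceeded miR-222-3p 20.01-fold. The gap was small for miR-125a-5p over miR-99b-5p (1.44-fold) and for miR-132-3p over miR-212-3p (3.43-fold), a pair induced by neuronal activity. Paralogous loci differed too, with miR-92b-3p 295-fold above miR-92a-3p and miR-26a-5p 193-fold above miR-26b-5p. The 6 listed guides of the miR-17-92 cluster, known from proliferating cells, summed to 221 ± 27.4 CPM. A miRNA made from several loci, such as miR-16-5p, miR-24-3p or miR-92a-3p, could not be assigned to 1 cluster from its counts.

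The imprinted region between Dlk1 and Dio3, which is active in brain and whose miRNAs are expressed from the maternal chromosome, held a large part of the pool. Of its 59 annotated miRNA genes, a few had no listed name. The others gave 96 listed names, 88 of them detected in every library. Together they took 18.8, 23.3 and 21.7% of counts (21.3 ± 2.25%), lowest in replicate 1. MiR-127-3p was 66.1% of that sum. Without miR-127-3p and miR-434-3p the other 94 names summed to 3.16 ± 0.351%. MiR-410-3p was the next member, at 6140, 9993 and 7480 CPM, with replicate 2 the highest. MiR-411-5p (4259 ± 291 CPM), miR-541-5p (2452 ± 123 CPM), miR-136-3p (2393 ± 232 CPM) and miR-341 (2247 ± 359 CPM) came after it.

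Most of the region was of middle abundance. Its 96 names had a median of 28.5 CPM, against 11.8 CPM over all 633 names, and 33 of them reached 100 CPM and 10 reached 1000 CPM. Inside the Rtl1-antisense cluster, miR-127-3p exceeded miR-434-3p 3.45-fold, miR-136-3p 58.6-fold, miR-433-3p 382-fold and miR-431 937-fold. These ratios were stable between libraries, for example 55.2 to 62.1 for miR-136-3p. Of the 66 names at 10 CPM or more, 41 were lowest in replicate 1, against 116 of 331 over all names at that level. The level of 38 of the 66 was highest in replicate 2, against 130 of 331.

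**Figure D3:**
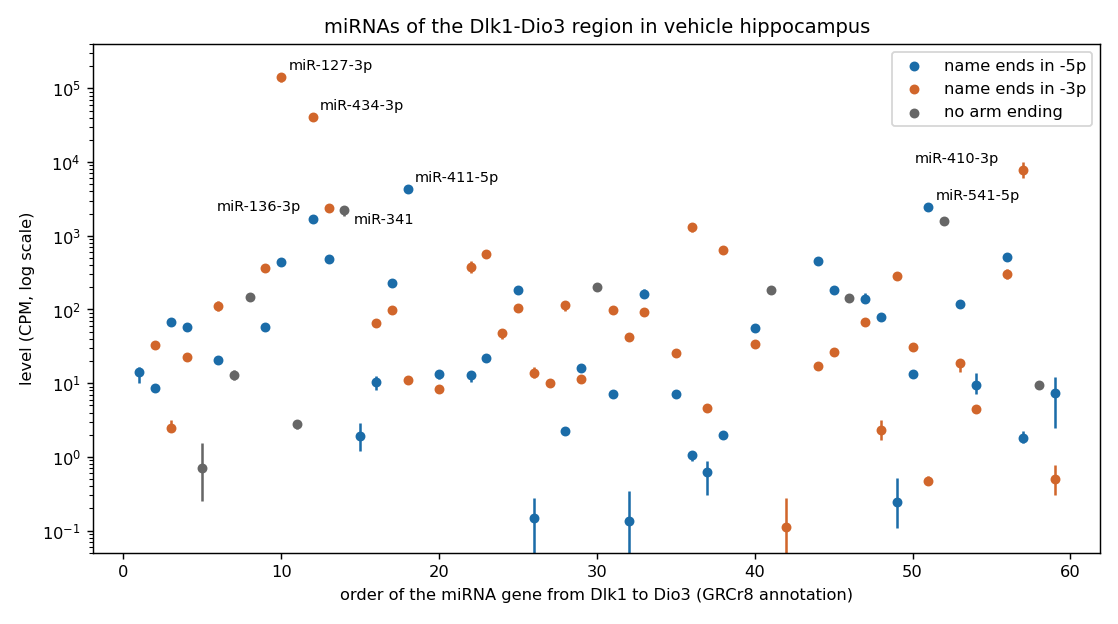
Mean level (CPM, log scale) of 91 miRNA names of the Dlk1-Dio3 region, in the order of their genes from Dlk1 to Dio3, coloured by arm ending, with vertical lines from the lowest to the highest VEH library. Names with a mean under 0.1 CPM (5) are not drawn. MiR-127-3p and miR-434-3p stand above all others, and most names lie between 1 and 1000 CPM.

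Names with a 5p ending held 61.2, 57.2 and 59.1% of counts (59.2 ± 1.98%) and names with a 3p ending 39.7 ± 1.92%. Among the 30 most abundant miRNAs, 20 were 5p and 10 were 3p. Both arms were listed for 220 hairpin names, and 173 of these pairs had a summed mean of at least 10 CPM. An arm was called preferred where its counts were at least 2-fold the other's in every library. The 5p arm was preferred in 75 of 173 pairs (43.4%) and the 3p arm in 73 (42.2%). Arms were within 2-fold of each other in every library in 19 pairs (11%), and 6 pairs met none of these rules in all 3 libraries. The split varied with abundance. Of 48 pairs at 1000 CPM or more, 29 preferred 5p and 17 preferred 3p. Of 71 pairs from 100 to 1000 CPM, 26 preferred 5p and 35 preferred 3p, and of 54 pairs from 10 to 100 CPM, 20 preferred 5p and 21 preferred 3p.

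Preference was strong and steady. The median size of the log2 ratio between arms was 5.15, and its median SD over libraries was 0.19. The ratio exceeded its SD in 170 of 173 pairs. In 111 pairs the preferred arm was at least 10-fold above the other. In 31 pairs an arm fell under 3 counts in at least 1 library and was set to 3, so their ratios were limited by depth.

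**Figure D4:**
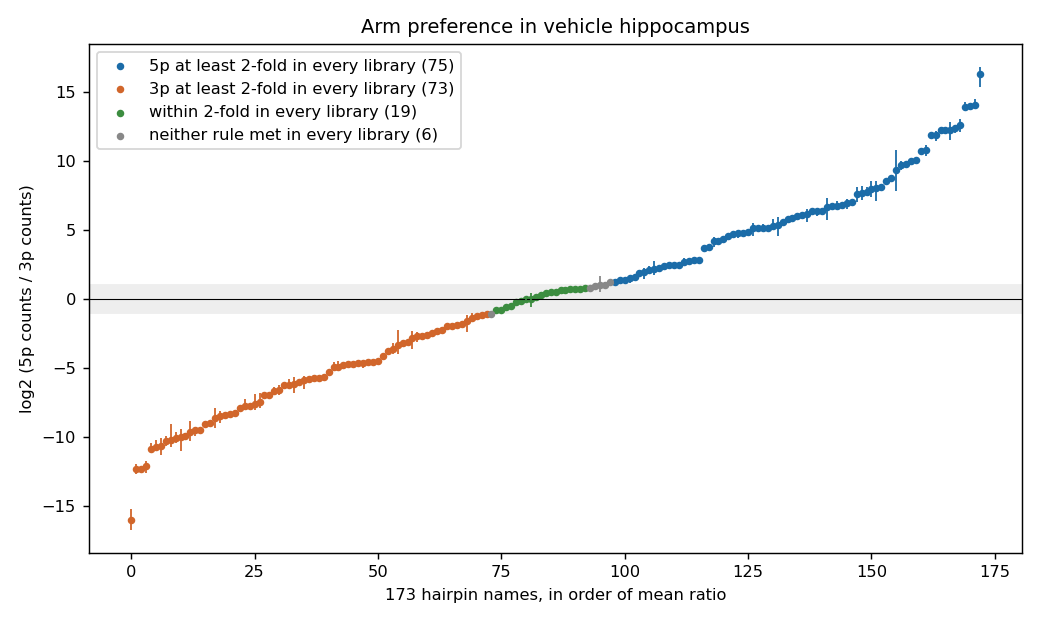
Log2 ratio of 5p to 3p counts for 173 hairpin names in order of their mean ratio. Points are means, vertical lines run from the lowest to the highest VEH library, and the grey band marks ratios within 2-fold. The 75 names preferring 5p and the 73 preferring 3p reach ratios above 15 and below -15 on the log2 scale.

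Precursor hairpins show which products were counted. The arms are in capitals (RefSeq, GRCr8), and the set holds strong 5p and 3p preference and near-equal use.
Mir26a: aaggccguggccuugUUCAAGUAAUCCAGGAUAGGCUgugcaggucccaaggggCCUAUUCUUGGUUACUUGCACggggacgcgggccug
Mir92b: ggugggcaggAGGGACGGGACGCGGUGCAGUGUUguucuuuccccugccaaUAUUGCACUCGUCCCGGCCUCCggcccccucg
Mir410: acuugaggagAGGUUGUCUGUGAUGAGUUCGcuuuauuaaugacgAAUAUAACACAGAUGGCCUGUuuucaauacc
Mir384: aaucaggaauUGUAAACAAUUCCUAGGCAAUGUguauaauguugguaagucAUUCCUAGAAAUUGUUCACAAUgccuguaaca
Mir369: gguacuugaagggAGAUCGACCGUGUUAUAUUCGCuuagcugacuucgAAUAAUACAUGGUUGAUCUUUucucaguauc

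The Mir26a hairpin had the largest ratio toward 5p. MiR-26a-5p had 1559565, 1018912 and 1612277 counts, while miR-26a-3p had 15, 9 and 39, a log2 ratio of 16.26 ± 0.81. MiR-100-3p had no counts in any library against 3197 ± 153 CPM of miR-100-5p. With 3 counts per library as the limit, miR-100-5p was at least 16305-fold higher as a geometric mean over the libraries. MiR-541-5p exceeded its 3p arm, at 7, 5 and 10 counts, by a log2 ratio of 12.38 ± 0.28. MiR-186, miR-16, miR-192, miR-146b, miR-98 and miR-351 also preferred 5p by mean log2 ratios from 12.23 to 14.08. For miR-16, several loci can make the 5p arm, so its ratio may not describe a single hairpin. Toward 3p, miR-143-3p, known from smooth muscle, had 317776, 187470 and 335618 counts against 0, 5 and 5 of its 5p arm, a log2 ratio of -15.97 ± 0.75 with the 0 set to 3. MiR-328a-3p stood at 1008 ± 48.2 CPM against 1, 0 and 0 counts of its 5p arm. The log2 ratio was -12.30 ± 0.22 for miR-92b, with 36, 34 and 62 counts of the 5p arm, and -12.08 ± 0.46 for miR-410, with 26, 19 and 41.

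Several hairpins kept both products. MiR-384-5p stood at 963, 954 and 866 CPM and miR-384-3p at 817, 864 and 873 CPM, so the arms overlapped. Its 5p arm carries the miR-30 seed and its 3p arm the seed UUCCUAG. MiR-151-3p (3464 ± 24.8 CPM) and miR-151-5p (3092 ± 147 CPM) differed by a log2 ratio of -0.16 ± 0.08, higher for 3p in every library. MiR-708-5p (208 ± 43.3 CPM) and miR-708-3p (209 ± 52.9 CPM) were equal to within their spread. The arm in excess changed between libraries in 3 pairs, miR-708, miR-374 and miR-384. MiR-212, of the activity-induced miR-132 and miR-212 cluster, had 284 ± 19.7 CPM of 5p and 499 ± 35.5 CPM of 3p, a log2 ratio of -0.81 ± 0.01, whereas miR-132 preferred 3p at -3.18 ± 0.08. MiR-330, miR-423, miR-872, miR-543, miR-455, miR-34b, miR-339 and miR-33 were also among those nearest to equal, with mean log2 ratios from -0.58 to 0.64.

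The less abundant arm could itself be abundant. Of the 148 hairpins with a preferred arm, the other arm reached 10 CPM in 60, 100 CPM in 14 and 1000 CPM in 3. These 3 were miR-434-5p (1691 ± 133 CPM), miR-9a-3p (1329 ± 68.5 CPM) and miR-338-5p (1067 ± 508 CPM). MiR-127-5p stood at 440 ± 42.6 CPM, against which miR-127-3p was 318-fold higher. MiR-126a, from the endothelial gene Egfl7, had 4676 ± 148 CPM of its 5p arm and 863 ± 58.8 CPM of its 3p arm, a 5.42-fold difference that ranged from 5.10 to 5.79.

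Some arms are named for 1 of several precursors that share the other arm. MiR-181a-1-3p stood at 1010 ± 166 CPM and miR-181a-2-3p at 7.67 ± 3.04 CPM. MiR-125b-2-3p (2832 ± 150 CPM) was above miR-125b-1-3p (197 ± 6.84 CPM), next to 10395 ± 773 CPM of the 5p arm that both loci make. MiR-219a-2-3p, of the oligodendrocyte lineage, stood at 1409, 1013 and 1139 CPM, while the shared miR-219a-5p stood at 33.9, 23.8 and 31.3 CPM. MiR-129-2-3p (1060 ± 108 CPM) equalled the shared miR-129-5p (1044 ± 71.0 CPM). The sequence of miR-129-1-3p is the start of miR-129-2-3p, so its 7.74 ± 2.17 CPM does not tell these loci apart.

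In the Dlk1-Dio3 region 38 pairs reached 10 CPM. The 5p arm was preferred in 9 (23.7%), the 3p arm in 21 (55.3%), 5 were near-equal and 3 unsettled. Outside the region, 66 of 135 pairs preferred 5p (48.9%) and 52 preferred 3p (38.5%), and this difference has no test here. Preferring 3p were miR-410, miR-300, miR-127, miR-434, miR-433 and miR-136 among others. MiR-411, miR-541, miR-382 and miR-134, a brain miRNA of dendrites, preferred 5p. The near-equal pairs were miR-543, miR-299a, miR-539, miR-369 and miR-376b.

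Uracil was the commonest first base, the position that Argonaute holds in its own pocket. It opened 37.1% of the 633 names but 65.2 ± 1.05% of counts, and 20 of the 30 most abundant miRNAs. Guanine opened 11.7% of names, 0.522 ± 0.00662% of counts and 0 of those 30. Among the 148 pairs with a preferred arm, uracil opened 76 preferred arms (51.4%) and 24 of the other arms (16.2%). It opened only the preferred arm in 63 pairs, only the other arm in 11, both in 13 and neither in 61. Counting A and U in the first 4 bases, the preferred arm had more in 65 pairs, the same number in 48 and fewer in 35. MiR-410 is an example without uracil at either end, with A opening both arms.

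Lists of cell type miRNAs were set against the tissue label. All 11 neuronal miRNAs were detected in every library and summed to 13.9, 14.1 and 13.5% of counts. MiR-9a-5p, described above as a regulator of neural progenitors, gave 63.4% of the sum, so the share does not measure neurons alone. MiR-138-5p, miR-128-3p, miR-124-3p and miR-218a-5p (2458 ± 302 CPM) were the next members. In bulk tissue, fewer cells of a type and less RNA per cell cannot be told apart. All 4 oligodendrocyte miRNAs were present and summed to 6458, 4371 and 4802 CPM, with miR-338-3p giving 56.2%. The 5 vascular miRNAs summed to 2.37 ± 0.168% of counts, of which miR-143-3p gave 75.1%.

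Blood and immune lists were each carried by 1 member. The red blood cell list summed to 3071, 3563 and 3399 CPM, of which miR-486 gave 98.7%, while miR-451-5p, the defining miRNA of red cells, was at 25.8 ± 3.38 CPM. Of the microglia and leukocyte list (957, 801 and 821 CPM), miR-150-5p gave 87.9%, and miR-223-3p was at 1.47 ± 0.392 CPM. The epithelial list summed to 244, 136 and 169 CPM and was 97.8% miR-375-3p, with miR-200c-3p at 0, 0.0850 and 0.0547 CPM. For muscle and liver, 5 of 6 names were listed and summed to 23.3, 25.0 and 24.8 CPM.

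The choroid plexus and ependyma list was highest in replicate 3, mainly through miR-204-5p and miR-1298. Its 7 members, all detected in every library, summed to 5800, 3984 and 12394 CPM (0.739 ± 0.443% of counts, 0.489% without replicate 3). MiR-204-5p, hosted by Trpm3 in the GRCr8 annotation and abundant in choroid plexus, stood at 3798, 2613 and 8583 CPM. MiR-1298 stood at 482, 272 and 1884 CPM and miR-448-3p at 25.5, 17.8 and 83.1 CPM, each with replicate 3 well above the others. For the ependymal members, replicate 3 lay closer to replicate 1. MiR-34c-5p stood at 1420, 1031 and 1759 CPM, miR-34b-5p at 45.2, 30.4 and 54.0 CPM and miR-449a-5p at 16.9, 8.16 and 20.9 CPM. MiR-211-5p was lowest in replicate 3, at 12.3, 12.1 and 10.4 CPM. The part of tissue composition in these levels was not tested.

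Hox-cluster miRNAs, which mark hindbrain and spinal cord, came down to miR-10a-5p, at 119, 448 and 36.3 CPM. Its list averaged 0.0201 ± 0.0218% of counts, or 0.00776% without replicate 2. MiR-10b-5p (0.0382 ± 0.0331 CPM) and the 3 listed miR-196 names were at or near 0.

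Lists of function were also read as shares. The dendrite and plasticity list of 11 miRNAs held 41.0 ± 1.65% of counts, of which miR-181a-5p gave 27.9%. MiR-9a-5p, miR-26a-5p and miR-22-3p were the other large members. All of these stand near the top of the abundance ranking, and the list was chosen with earlier results known. Its share therefore largely restates that ranking. Activity-dependent miRNAs held 0.293 ± 0.0242%, of which miR-132-3p, induced by the transcription factor CREB, gave 58.5% at 1807, 1815 and 1512 CPM. MiR-134-5p (181 ± 7.27 CPM) belongs to both lists. MiR-184, also on the activity list, was at 9.82 ± 2.18 CPM.

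Most levels differed little between VEH libraries. For the 184 miRNAs at 100 CPM or more, the median coefficient of variation (CV) was 7.69%, against 1.06% from counting alone. The CV was under 5% for 48 of them and over 20% for 18, and 5 differed by 2-fold or more between the lowest and highest library. MiR-151-3p (CV 0.715%), miR-9a-5p (0.755%) and miR-191a-5p (1.37%) were among the steadiest. The common biological coefficient of variation from edgeR was 17.5% over 449 miRNAs.

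Among these 184 miRNAs, the 4 widest spreads were those of members of the Hox, choroid plexus and oligodendrocyte lists. MiR-10a-5p had a CV of 108%, miR-1298 of 99.7% and miR-204-5p of 63.2%. MiR-338-5p, of the oligodendrocyte list, followed at 1548, 536 and 1116 CPM, while its partner arm miR-338-3p stood at 3467, 2798 and 2515 CPM. MiR-146b-5p stood at 3881, 1996 and 2506 CPM, highest in replicate 1, and miR-192-5p at 2106, 2845 and 1437 CPM, highest in replicate 2. MiR-182, miR-335, miR-375-3p, miR-187-3p, miR-34c-5p and miR-708-3p had CVs of 25.3 to 38.9%. Of the 18 miRNAs with a CV over 20%, 3 were highest in replicate 1, 8 in replicate 2 and 7 in replicate 3.

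**Figure D5:**
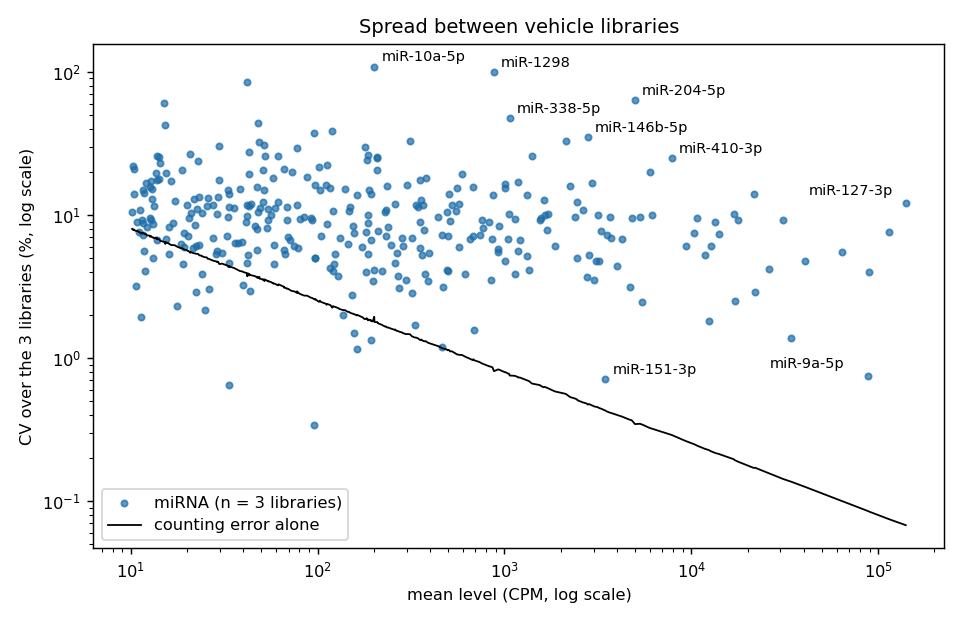
Coefficient of variation over the 3 VEH libraries (%, log scale) against mean level (CPM, log scale) for 331 miRNAs of 10 CPM or more. The black line is the spread from counting error alone, and 308 miRNAs lie above it. MiR-10a-5p, miR-1298 and miR-204-5p stand highest among the abundant miRNAs, and miR-9a-5p and miR-151-3p lie low.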

How the data were processed

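Small RNA of rat hippocampus was sequenced and read counts of mature miRNAs in the 3 VEH libraries were described. The authors deposited 1 table of whole-number counts per miRNA and library, with a second set of values headed TPM. These deposited values equal the counts scaled to the library total (largest relative difference 0.000454%), so they are CPM with no length term. The submitters' processing notes name cutadapt 1.14, Bowtie, DESeq and Rnor_6.0, with no roles. For reads matching several miRNAs, the counting rule was not given in the sources used here. Within the table were 21 blank lines, 1 name split over lines (rejoined), and 3 joint names of several miRNAs.

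CPM were recomputed from the counts with pandas 2.3.3. Seeds and first bases came from the sequence column of the deposited table, available for every name. Of 633 names, 571 matched the RefSeq mature sequences by name, all with identical sequence, and only RefSeq sequences are printed. The annotation of assembly GRCr8, which differs from Rnor_6.0, matched 618 names and gave host genes and region membership, with no coordinates. Arm ratios used counts within a library, with counts under 3 set to 3. The common coefficient of variation came from edgeR 4.0.16 (R 4.3.3; filterByExpr, TMM, intercept only). Arm calls and dispersion were tested on simulated data. The simulated arm pairs were either equal or well beyond 2-fold apart, so calls near the 2-fold limit were not tested.

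The members and lists were chosen with earlier results of these data known. The text names the 30 most abundant miRNAs, members of the 10 largest families and seeds and of the lists, the 12 arm pairs nearest to and farthest from equal, pairs that change direction, and the 12 miRNAs with the highest CV. Others named (miR-98-5p and other seed members, less abundant and numbered arms, Dlk1-Dio3 members, and the steadiest miRNAs) were chosen after their values were seen. No p-value is given, since 3 libraries in 1 group cannot go below a two-sided exact sign-flip p of 0.25.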

Additional observations from a re-analysis of the deposited data

How the results depend on the processing

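For 35 summary results, 151 values were recomputed under other settings, and reversal was not looked for. Of these, 137 moved by less than the SD between libraries, by at most 1.5 times for counts, or within a confidence interval for first bases. The alternative coefficients of variation had no such rule and fall among the other 14. Leaving out 1 of 3 libraries cannot move a mean share by 1 SD, so those values do not show stability. The Hox list, for example, went from 0.0201 to 0.00776% of counts without VEH replicate 2. With pairs of at least 100 CPM, near-equal pairs fell to 10 and unsettled ones to 2, since fewer pairs enter. A 4-fold rule made 36 pairs near-equal by its construction. Leaving out a library gave 3 to 5 unsettled pairs against 6, with 3 without VEH replicate 1, since fewer libraries must meet the rule. By the same rule no pair could change to the opposite arm, so this was not a test of the calls. With miR-127-3p left out of the total, the seed shares by construction were 14.6% for miR-181, 11.9% for let-7, 10.5% for miR-26 and 10.2% for miR-9a-5p. With only the more abundant arm, the miR-9 family held 8.78%. The common coefficient of variation was 17.6% without scaling factors, 16.97% for miRNAs of 10 CPM or more, and 16.2 to 19.3% with each library left out; the cause was not tested. No paired analysis was possible because only 1 group was described, so no groups were compared. Depth limits arms and miRNAs under 3 counts, which lie below 0.164 to 0.255 CPM.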
